A study of Mus musculus with 9 samples.

Results

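The 9 genes described here encode proteins that bring fructose into liver metabolism, build and break down glycogen, and set the pace of phosphofructokinase. They were chosen by gene symbol for these roles, and each symbol matched 1 row among the 54393 genes of the count table. All 9 were among the 14873 genes tested. They are Slc2a2, Khk and Tkfc for hexose entry and fructose breakdown, Gys2 and Pygl for glycogen, Slc37a4 for the release of glucose from glucose 6-phosphate, and Pfkl, Pfkfb1 and Pfkfb3 for phosphofructokinase and its regulator.

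Liver RNA was sequenced from mice of the strain labelled C56Bl/6j on the purified diet AIN-76a, in which sucrose is a main carbohydrate. The antibiotics group (4 libraries, replicates 1, 2, 3 and 5) received non-absorbable antibiotics to deplete the gut microbiota. In the control group (5 libraries, replicates 1 to 5) conventional mice ate the same diet without antibiotics. The sources used here give neither the names, dose and duration of the antibiotics nor the age and sex of the mice. No source states that each library is a separate mouse, and a p-value therefore measures library-to-library spread, which may be technical. Sample titles carry a 1 in front of the replicate number in every control and a 2 in every antibiotics library, and whatever that number stands for cannot be told apart from the treatment.

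Library totals ran from 15422891 to 59179622 estimated counts. Antibiotics libraries 1, 2 and 3 were shallower than every control, and antibiotics library 5 was the deepest of all. At these depths the 9 genes had between 355 and 37957 counts in each library. Hepatocyte markers (6 of 6 tested, among them Alb and Apoa1) summed to between 75840 and 87750 CPM with antibiotics and between 78260 and 93610 CPM in controls, where CPM is the count normalised to TMM-scaled library size. None of the 11 cell marker lists had a gene that passed the test, where 2.68% of all tested genes did. Only 1 of 6 neutrophil, 2 of 6 skeletal muscle, 2 of 5 adipocyte and 2 of 6 pancreas markers were tested. Myh4 of skeletal muscle and Prss2 and Pnlip of pancreas were at 0 in every library. The 6 pancreas markers summed to between 10.6 and 21.2 CPM with antibiotics and between 10.4 and 15.5 CPM in controls. Cela1 alone averaged 14.8 CPM with antibiotics and 12.4 CPM in controls. Control library 2 stood apart in its 6 Kupffer cell and macrophage markers, which summed to 386 CPM there, against 132 to 171 CPM with antibiotics and 131 to 184 CPM in the other controls. The 5 adipocyte markers summed to between 3.51 and 5.29 CPM with antibiotics and between 0.888 and 1.89 CPM in 4 of the 5 controls, with control library 5 at 4.95 CPM. Of these Cidec, a lipid droplet gene, averaged 3.02 ± 1.01 CPM with antibiotics and 1.55 ± 1.15 CPM in controls (adjusted p = 0.217). Cfd averaged 0.972 ± 0.169 CPM with antibiotics and 0.392 ± 0.454 CPM in controls (adjusted p = 0.388). Adipoq, Plin1 and Lep each averaged under 1 CPM in both groups and were not tested. Erythroid markers summed to between 269 and 362 CPM with antibiotics and between 193 and 308 CPM in controls, and skeletal muscle markers to between 1.31 and 1.83 CPM with antibiotics and between 1.81 and 2.22 CPM in controls. Mitochondrially encoded mRNA made up 5.19% to 7.35% of counts with antibiotics and 4.34% to 6.55% in controls. Of the 12 genes of the clock output list 4 passed as higher and 1 as lower, where 1.63% and 1.05% of all tested genes did. The list summed to between 689 and 762 CPM with antibiotics and between 515 and 657 CPM in controls, without overlap. That sum pools genes that went both ways. Dbp averaged 112 CPM with antibiotics and 63.5 CPM in controls, and Nfil3 averaged 11.5 and 18.3 CPM. The part of these measures in the values below was not tested. In whole liver, fewer cells of a type and less RNA per cell cannot be told apart.

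Fructose from dietary sucrose reaches hepatocytes in portal blood and is phosphorylated by ketohexokinase, which bypasses the phosphofructokinase step of glycolysis. Later enzymes, triokinase among them, carry the product on to triose phosphates, which feed glycolysis, glycogen and fat synthesis. Glycogen synthase stores glucose units and glycogen phosphorylase releases them, and the glucose 6-phosphate transporter moves their product into the endoplasmic reticulum, where it is cleaved to free glucose. The bifunctional enzymes of the Pfkfb family make and break fructose 2,6-bisphosphate, the main activator of phosphofructokinase.

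With the quasi-likelihood test of edgeR and p-values adjusted by Benjamini-Hochberg over all tested genes, 0 of the 9 genes passed an adjusted p of 0.05, where 2.68% of all tested genes did (1.63% higher and 1.05% lower with antibiotics). DESeq2 and limma-voom likewise called 0 of the 9, where they called 6.68% and 2.78% of the genes they tested. Unadjusted, 5 of the 9 had p under 0.05 by each of the 3 tools, where 18.5% of all tested genes did by edgeR. The groups overlapped in CPM for every one of the 9 genes, where 8.88% of tested genes had groups that did not. Mean levels with antibiotics were above those of controls for Gys2, Slc37a4, Pfkfb1 and Slc2a2, and below them for Pfkfb3, Tkfc, Pygl, Khk and Pfkl. The log2 fold change was thus above 0 in 4 of 9, where it was in 48.6% of all tested genes. The 5 genes under an unadjusted 0.05 were Pfkfb3, Gys2, Slc37a4, Pfkfb1 and Pygl, 3 of them higher and 2 lower with antibiotics (9.6% and 8.87% of all tested genes). The median log2 fold change of the 9 genes was -0.01, the same to 2 decimals as over all tested genes.

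**Figure D1:**
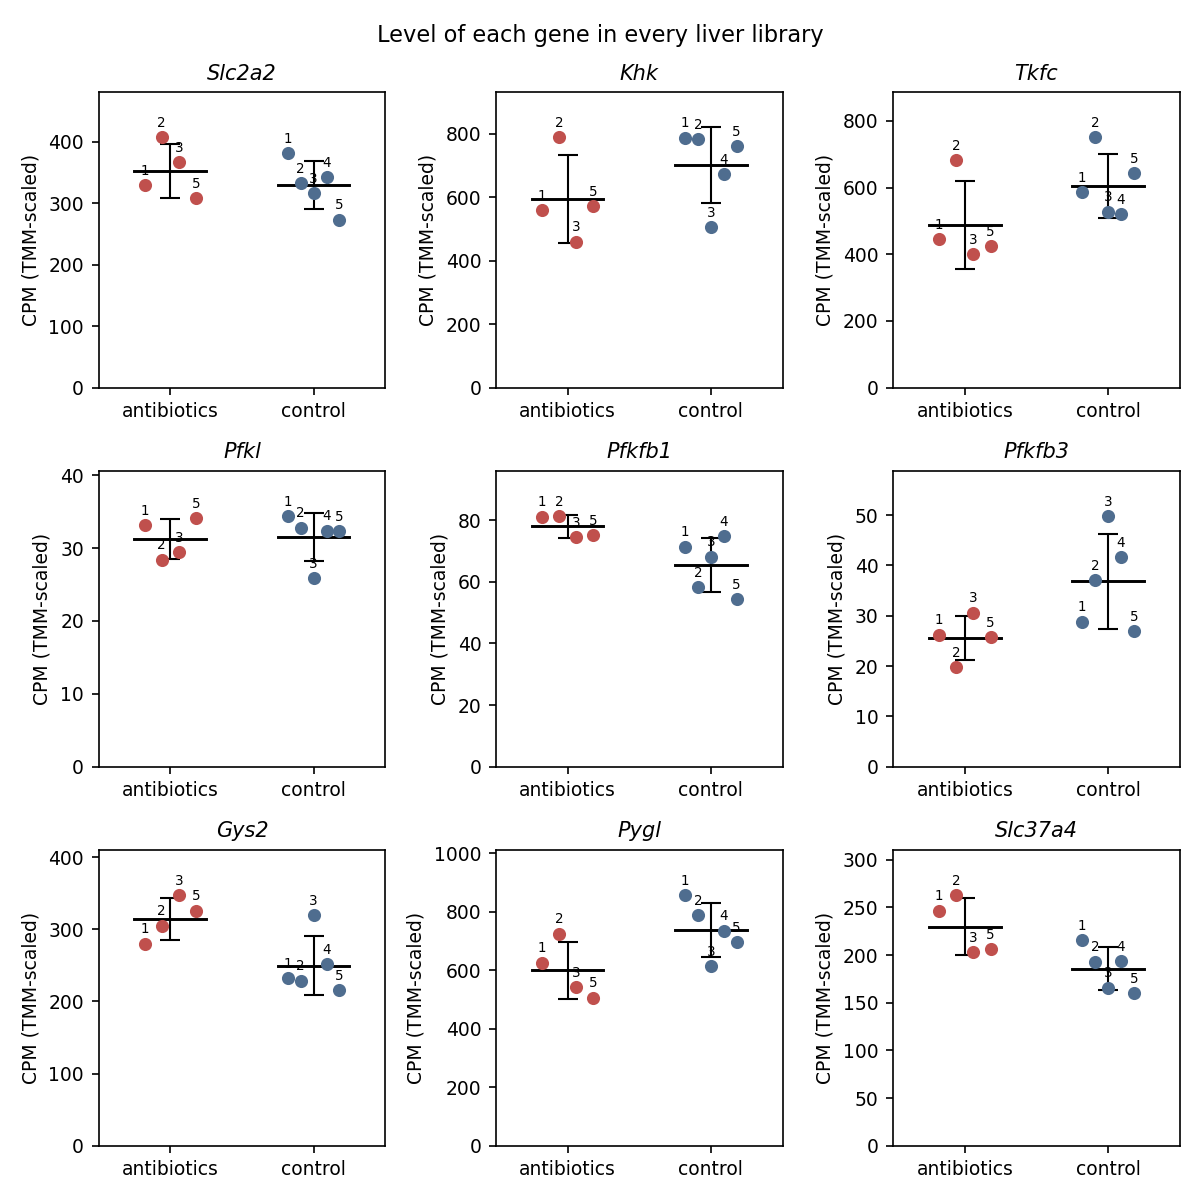
Normalised read count (CPM on TMM-scaled libraries, linear axes from 0) of each of the 9 genes in 4 antibiotics libraries (red, left) and 5 control libraries (blue, right). Numbers are the replicate numbers, long bars the mean and whiskers the SD; the groups overlap in all 9 panels, and antibiotics library 2 sits above the other 3 for Khk and Tkfc.

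Slc2a2 encodes GLUT2, the carrier that lets glucose and fructose cross the hepatocyte membrane (ENSMUSG00000027690.13, chromosome 3, 28697903 to 28731359, GRCm38). It measured 329, 407, 366 and 308 CPM in antibiotics libraries 1, 2, 3 and 5, against 381, 333, 316, 342 and 273 CPM in control libraries 1 to 5. The groups overlapped almost entirely. The means were 353 ± 43.9 CPM with antibiotics and 329 ± 39.2 CPM in controls (SD, n = 4 and 5). Its log2 fold change was 0.10 ± 0.11 (SE, adjusted p = 0.678), with a 95% interval from -0.14 to 0.34, so a change beyond 1.27-fold up or 0.906-fold down lay outside it. It ran from 0.02 (without antibiotics library 2) to 0.16 (without control library 1) when each library was left out.

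Khk encodes ketohexokinase, the first enzyme of fructose breakdown (ENSMUSG00000029162.15, chromosome 5, 30921431 to 30931248). Its level was 559, 790, 461 and 572 CPM in antibiotics libraries 1, 2, 3 and 5, against 788, 783, 505, 673 and 761 CPM in the 5 controls. Antibiotics library 2 was the highest of all 9 and antibiotics library 3 the lowest, and control library 3 lay far below the other controls. The log2 fold change was -0.24 ± 0.17 (adjusted p = 0.486, 95% interval -0.61 to 0.13), from means of 595 ± 139 CPM with antibiotics and 702 ± 119 CPM in controls. It was -0.40 without antibiotics library 2 and -0.13 without antibiotics library 3 (adjusted p = 0.233 and 0.760).

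Tkfc encodes triokinase, which phosphorylates the glyceraldehyde released in fructose breakdown (ENSMUSG00000034371.9, chromosome 19, 10587791 to 10605654). It measured 444, 682, 400 and 424 CPM in antibiotics libraries 1, 2, 3 and 5, against 585, 751, 528, 520 and 642 CPM in control libraries 1 to 5. Antibiotics libraries 1, 3 and 5 lay below every control, while antibiotics library 2 lay above all controls but library 2. For Tkfc the log2 fold change was -0.31 ± 0.17 (adjusted p = 0.348, 95% interval -0.68 to 0.05), and -0.52 without antibiotics library 2 (adjusted p = 0.0846). Tkfc shares 596 exon bases with Cyb561a3 and 328 with Ddb1, both on the opposite strand, and no source used here says whether counting used the strand.

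RefSeq promoter windows (GRCm38.p6) were found for 8 of the 9 genes, 14 windows in all, and Gys2 was the other gene. The 250 bases before each start were searched on both strands for the E-box CACGTG and for an exact pair of it 5 bases apart. They were also searched for TTATGTAA (D-box), TGACGTCA (cyclic AMP response element) and TGTTTAC (forkhead). The E-box is the core letters bound by clock factors and by the carbohydrate response factor ChREBP, and the D-box those bound by Dbp. An E-box stood in 1 window each of Khk and Pfkfb3, and no other match was found in the 14 windows. Of all 32851 RefSeq windows of that length, 6.02% held an E-box and 0.819% the D-box. The cyclic AMP response element stood in 1.55% and the forkhead letters in 3.17%. The exact pair stood in 0 of them, so its absence from the 14 windows says nothing about these genes. The 120 bases next to the start are given below for both windows with a match and for Tkfc, whose enzyme acts 2 steps after that of Khk, with the E-box in capitals. The Khk stretch is chr5:30921439-30921558 on the plus strand, that of Pfkfb3 chr2:11502091-11502210 on the minus strand, at the more downstream of its 2 starts, and that of Tkfc chr19:10604259-10604378 on the minus strand. Each stretch lies inside the gene position given here, because the RefSeq start used is downstream of the outermost start of that position.
Khk: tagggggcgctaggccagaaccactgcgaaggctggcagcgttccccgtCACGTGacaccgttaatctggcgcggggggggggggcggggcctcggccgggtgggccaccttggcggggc
Pfkfb3: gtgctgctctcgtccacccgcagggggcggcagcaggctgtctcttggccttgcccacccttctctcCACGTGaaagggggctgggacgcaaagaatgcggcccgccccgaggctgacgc
Tkfc: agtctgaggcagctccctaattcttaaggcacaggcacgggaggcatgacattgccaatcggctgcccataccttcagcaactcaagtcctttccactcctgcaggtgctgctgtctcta
The E-box ran from base -71 to -66 before the Khk start and from -53 to -48 before the Pfkfb3 start. A match describes the letters only, and these data hold no measure of binding.

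Gys2 encodes the liver form of glycogen synthase (ENSMUSG00000030244.7, chromosome 6, 142422613 to 142473109). It measured 280, 305, 348 and 326 CPM in antibiotics libraries 1, 2, 3 and 5, against 232, 229, 320, 252 and 216 CPM in control libraries 1 to 5. All 4 antibiotics libraries lay above 4 of the 5 controls, and control library 3 lay among them. The means were 315 ± 28.8 CPM with antibiotics and 250 ± 41.4 CPM in controls. For Gys2 the log2 fold change was 0.33 ± 0.12 (adjusted p = 0.158, 95% interval 0.08 to 0.59). Without control library 3 it was 0.44 with an adjusted p of 0.0333, the 1 call made for any of the 9 genes when each library was left out in turn, where its other adjusted p ran from 0.186 to 0.337.

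Pygl encodes the liver glycogen phosphorylase (ENSMUSG00000021069.17, chromosome 12, 70190811 to 70231488). It measured 625, 725, 541 and 506 CPM in antibiotics libraries 1, 2, 3 and 5, against 856, 789, 613, 734 and 695 CPM in control libraries 1 to 5. Antibiotics libraries 3 and 5 lay below every control, and control library 3 was again the nearest of the controls to them. The log2 fold change was -0.30 ± 0.13 (adjusted p = 0.238, 95% interval -0.58 to -0.02), from means of 599 ± 97.5 CPM with antibiotics and 737 ± 92.4 CPM in controls.

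Set against each other within a library, Gys2 over Pygl had a log2 ratio of -1.16, -1.25, -0.64 and -0.64 in antibiotics libraries 1, 2, 3 and 5, against -1.88, -1.78, -0.94, -1.55 and -1.69 in control libraries 1 to 5. These ratios of CPM are not per length, so only their difference between libraries can be read. Control library 3 had a higher ratio than antibiotics libraries 1 and 2, and the other 4 controls were below all antibiotics libraries. The difference of the means was 0.65 (antibiotics minus control), from -0.92 ± 0.33 with antibiotics and -1.57 ± 0.37 in controls (SD, n = 4 and 5). It was not tested, since both genes were picked for their roles with earlier results known, and it ran from 0.55 to 0.81 when each library was left out in turn.

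Slc37a4 encodes the glucose 6-phosphate transporter of the endoplasmic reticulum, the step shared by glycogen breakdown and gluconeogenesis (ENSMUSG00000032114.9, chromosome 9, 44396852 to 44402968). It measured 246, 263, 203 and 206 CPM in antibiotics libraries 1, 2, 3 and 5, against 216, 193, 166, 194 and 160 CPM in control libraries 1 to 5. Antibiotics libraries 1 and 2 lay above every control, and antibiotics libraries 3 and 5 lay above every control but library 1. For Slc37a4 the log2 fold change was 0.31 ± 0.11 (adjusted p = 0.165, 95% interval 0.06 to 0.55), from means of 230 ± 29.6 CPM with antibiotics and 186 ± 22.7 CPM in controls. Its partner G6pc, the catalytic subunit of glucose 6-phosphatase, averaged 281 ± 81.2 CPM with antibiotics and 311 ± 86.3 CPM in controls (adjusted p = 0.776).

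Pfkl encodes the liver subunit of phosphofructokinase (ENSMUSG00000020277.10, chromosome 10, 77986947 to 78010083). It measured 33.1, 28.4, 29.4 and 34.1 CPM in antibiotics libraries 1, 2, 3 and 5, against 34.4, 32.8, 25.9, 32.4 and 32.3 CPM in control libraries 1 to 5. The antibiotics libraries all fell within the range of the controls. The log2 fold change was -0.01 ± 0.09 (adjusted p = 0.962), with a 95% interval from -0.22 to 0.19 or 0.860-fold to 1.14-fold, and its sign changed with the scaling factors.

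Pfkfb1 encodes the liver form of the bifunctional enzyme (ENSMUSG00000025271.13, chromosome X, 150588229 to 150643878). It measured 81.1, 81.3, 74.4 and 75.1 CPM in antibiotics libraries 1, 2, 3 and 5, against 71.4, 58.2, 68.1, 74.9 and 54.4 CPM in control libraries 1 to 5. Antibiotics libraries 1, 2 and 5 lay above every control, and library 3 lay above all but control library 4, by under 1 CPM. The means were 78.0 ± 3.75 CPM with antibiotics and 65.4 ± 8.74 CPM in controls, a log2 fold change of 0.25 ± 0.10 (adjusted p = 0.190, 95% interval 0.04 to 0.46). The coefficient of variation was 4.80% with antibiotics, the lowest of the 9 genes, and 13.4% in controls. Pfkfb1 shares 123 exon bases with Apex2 on the opposite strand.

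Pfkfb3 encodes the inducible form, whose kinase activity far exceeds its phosphatase activity (ENSMUSG00000026773.19, chromosome 2, 11471433 to 11554077). It measured 26.2, 19.8, 30.6 and 25.7 CPM in antibiotics libraries 1, 2, 3 and 5, against 28.8, 37.0, 49.8, 41.6 and 27.0 CPM in control libraries 1 to 5. Antibiotics libraries 1, 2 and 5 lay below every control, while library 3 lay above control libraries 1 and 5. The means were 25.6 ± 4.44 CPM with antibiotics and 36.8 ± 9.39 CPM in controls, and the log2 fold change of -0.53 ± 0.18 was the largest in size among the 9 genes (0.694-fold, adjusted p = 0.149, 95% interval -0.92 to -0.13). Without control library 3 it was -0.40 (adjusted p = 0.205), and without control library 5 it was -0.62 (adjusted p = 0.0725). With DESeq2 on all libraries the log2 fold change was -0.54 (adjusted p = 0.0521).

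The log2 ratio of Pfkfb3 over Pfkfb1 was -1.63, -2.04, -1.28 and -1.55 in antibiotics libraries 1, 2, 3 and 5, against -1.31, -0.65, -0.45, -0.85 and -1.01 in control libraries 1 to 5. Antibiotics library 3 lay just above control library 1, which was the only overlap. The difference of the means was -0.77 (antibiotics minus control), from -1.63 ± 0.31 and -0.86 ± 0.33, and it ran from -0.88 to -0.63 when each library was left out. The ratio of Slc2a2 over Khk overlapped more widely, at -0.74 ± 0.28 with antibiotics and -1.08 ± 0.30 in controls.

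**Figure D2:**
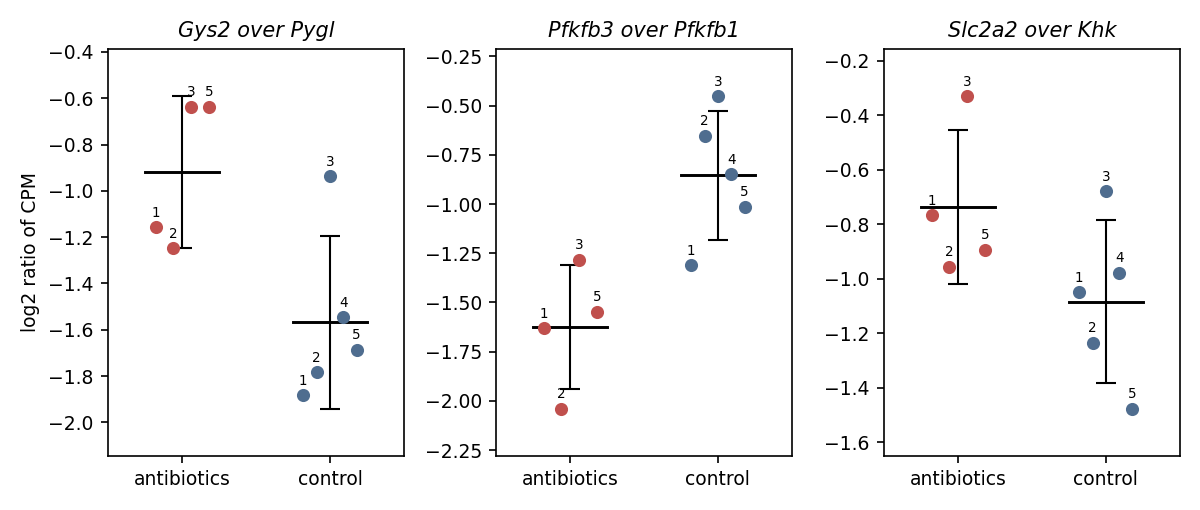
The log2 ratio of CPM of paired genes in each library, 4 with antibiotics (red, left) and 5 controls (blue, right), with the mean as a long bar and the SD as whiskers. Gys2 over Pygl averages -0.92 with antibiotics and -1.57 in controls, and Pfkfb3 over Pfkfb1 averages -1.63 with antibiotics and -0.86 in controls.

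**Figure D3:**
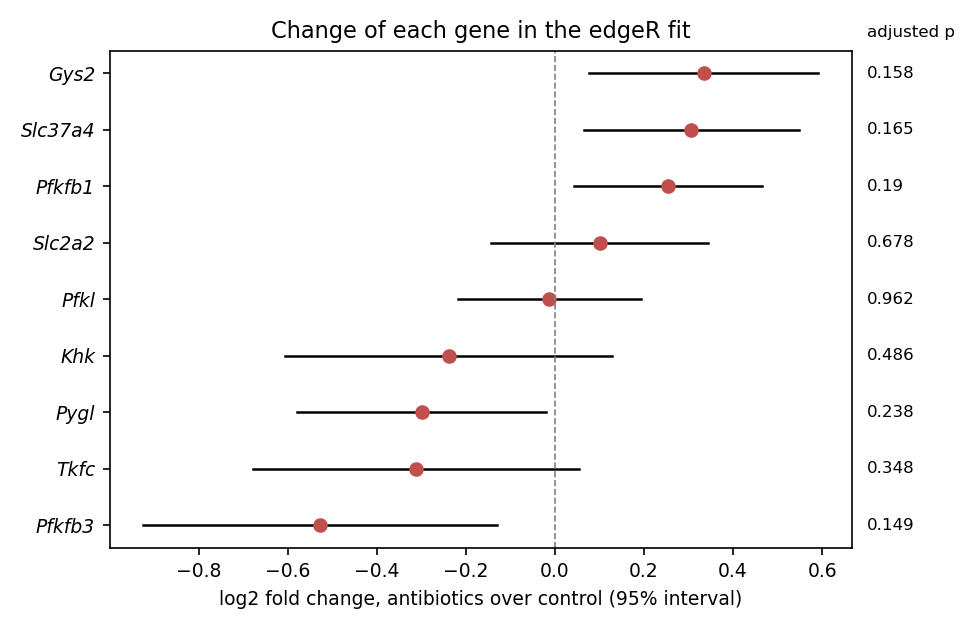
Log2 fold change of each gene (points, antibiotics over control) with its 95% interval from the edgeR fit, ordered by size, and the adjusted p at the right. The intervals of 5 genes leave out 0, and the smallest adjusted p is 0.149, for Pfkfb3.

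Levels of different genes were compared per kilobase of merged exons in GENCODE M21. Khk was the highest, at 331 ± 77.4 CPM per kb with antibiotics and 391 ± 66.5 CPM per kb in controls, and its range lay above that of every other gene in both groups. With antibiotics Gys2 (118 CPM per kb), Tkfc (106), Pygl (86.9) and Slc37a4 (80.4) followed, each overlapping the next in range. In controls the order was Tkfc (131 CPM per kb), Pygl (107) and Gys2 (94.0), each overlapping the next, and then Slc37a4 (65.0) and Slc2a2 (57.1), which overlapped each other. With antibiotics Slc2a2 measured 61.3 CPM per kb and did not overlap its neighbours. Pfkfb1 stood at 19.4 CPM per kb with antibiotics and 16.3 in controls. Pfkl had 4.68 CPM per kb with antibiotics and 4.73 in controls, and Pfkfb3 had 3.38 with antibiotics and 4.87 in controls. Pfkl and Pfkfb3 overlapped in controls only, and the order of genes was not tested between the groups.

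Within each group some libraries were extreme for several of the genes, though not for all of them. Antibiotics library 2 was the highest of all 9 libraries for 4 genes (Slc2a2, Khk, Pfkfb1 and Slc37a4) and the lowest for Pfkfb3. Control library 5 was the lowest for 4 genes (Slc2a2, Pfkfb1, Gys2 and Slc37a4). Control library 3 was the highest for Pfkfb3, the lowest for Pfkl and the lowest of the controls for Khk and Pygl. Control library 3 and antibiotics library 2 also had the highest share of mitochondrially encoded mRNA in their groups, at 6.55% and 7.35%. The coefficient of variation within a group ran from 4.80% for Pfkfb1 to 26.8% for Tkfc with antibiotics and from 10.4% for Pfkl to 25.5% for Pfkfb3 in controls.

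The profile of each gene over the 9 libraries was set against those of the 7402 tested genes that averaged 10 CPM or more, by the root mean square difference of log2 CPM after each gene was centred on its mean. Nearest to Khk were Tkt, the transketolase of the pentose phosphate pathway, at 0.10 and Eno1, a glycolytic enolase, at 0.12, against an SD of 0.29 for Khk itself. Khk, Tkt and Eno1 were all below their means in antibiotics libraries 1, 3 and 5 and in control library 3, and above them in the other 5 libraries. S100a10 was among the genes nearest to Tkfc, at 0.14 against an SD of 0.30. The genes nearest to the other 7 were in none of the carbohydrate lists used here: Uox and Rmnd5a for Slc2a2, B4galnt1 and Impdh2 for Pfkl, Epas1 and Mettl4 for Pfkfb1, Usp45 and Syne1 for Pfkfb3, Zbtb44 and Ankzf1 for Gys2, Ufl1 and Pdhb for Pygl, and Hoga1 and Dpyd for Slc37a4. These likenesses are descriptions over the same 9 libraries, in which any 2 genes have treatment group and depth in common, and Pfkfb3 had the poorest match, at 0.21 against an SD of 0.38.

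**Figure D4:**
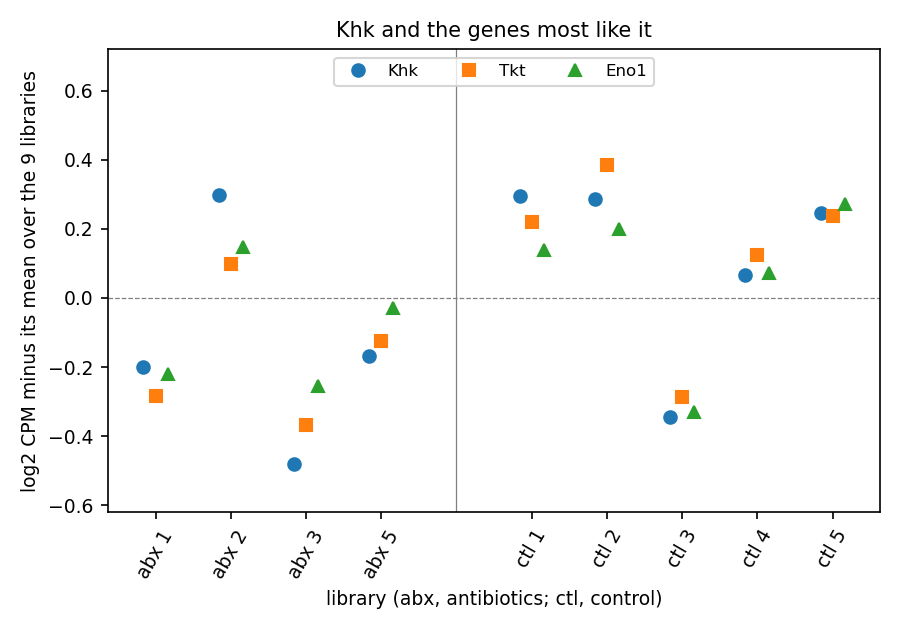
Log2 CPM of Khk and the 2 genes most like it, after centring each gene on its mean over 9 libraries; abx marks the 4 antibiotics libraries and ctl the 5 controls. All 3 genes are below their means in antibiotics library 3 and control library 3, and above them in antibiotics library 2.

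Around these 9 genes, 6 lists of carbohydrate genes held 91 genes, of which 88 were tested and 2 passed with edgeR: Slc2a9 rose and Pygb fell. These 2 are 2.27% of the listed genes tested, against 2.68% of all tested genes. By limma-voom 2 passed, also 2.27% against 2.78% of all, and by DESeq2 5 passed, 5.68% against 6.68% of all. Before adjustment 27 had p under 0.05 in edgeR, 30.7% against 18.5% of all tested genes; the lists overlap the 9 genes and were chosen with earlier results known.

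In the fructose and polyol list 1 of 12 tested genes rose and 0 fell, where 1.63% and 1.05% of all tested genes did. Before adjustment 3 of the 12 had p under 0.05, all higher with antibiotics (9.6% of all tested genes), with a median log2 fold change of 0.00 against -0.01 over all tested genes. Slc2a9 encodes GLUT9, known chiefly as a urate transporter. It measured 37.8, 34.2, 35.8 and 38.0 CPM in antibiotics libraries 1, 2, 3 and 5, against 32.4, 28.6, 28.2, 26.4 and 28.9 CPM in control libraries 1 to 5, without overlap. Its log2 fold change was 0.34 ± 0.07 (adjusted p = 0.0397), and of the 9 fits with 1 library omitted it passed in 2, without control library 1 or 5 (otherwise adjusted p from 0.0552 to 0.120). The call was also lost when all genes with any count were kept (adjusted p = 0.0784), on thinning to the smallest library (0.0667) and with the replicate block (0.0849). Slc2a5, the fructose carrier GLUT5, averaged 11.6 ± 3.19 CPM with antibiotics and 8.03 ± 1.46 CPM in controls (adjusted p = 0.157). Glyctk, a glycerate kinase at the end of 1 branch of fructose breakdown, averaged 272 ± 6.20 CPM with antibiotics and 240 ± 21.9 CPM in controls (adjusted p = 0.255), and Sord, which makes fructose from sorbitol, had an adjusted p of 0.304.

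In the glycogen list 0 of 26 tested genes rose and 1 fell, where 1.63% and 1.05% of all tested genes did. Before adjustment 5 were higher and 4 lower with p under 0.05 (9.6% and 8.87% of all tested genes), with a median log2 fold change of -0.06. Pygb encodes the brain form of glycogen phosphorylase. It measured 4.11, 5.07, 4.91 and 4.42 CPM in antibiotics libraries 1, 2, 3 and 5, against 7.06, 7.44, 5.85, 7.64 and 6.86 CPM in control libraries 1 to 5, without overlap. Its log2 fold change was -0.59 ± 0.11 (adjusted p = 0.0268), and of the 9 fits with 1 library omitted it passed in 3, without antibiotics library 2 or control library 3 or 5 (otherwise adjusted p from 0.0546 to 0.0923). The call was also lost with the replicate block (adjusted p = 0.0815). Ppp1r3g, a glycogen-targeting subunit of protein phosphatase 1, averaged 3.54 ± 1.58 CPM with antibiotics and 8.74 ± 3.62 CPM in controls (log2 fold change -1.32 ± 0.36, adjusted p = 0.0758). Ppp1r3g passed in 3 of the 18 alternatives and missed the threshold in 15. The 3 were DESeq2 (adjusted p = 0.00458), the fit keeping every gene with a count (0.0467) and omission of control library 5 (0.0250). By limma-voom the adjusted p was 0.101, and under the replicate block 0.168. In the other fits with 1 library omitted it ran from 0.0676 to 0.201. Gyg, the glycogenin that primes glycogen chains, averaged 6.59 ± 0.357 CPM with antibiotics and 5.16 ± 0.413 CPM in controls (adjusted p = 0.0813), and the muscle glycogen synthase Gys1 averaged 3.76 ± 0.733 and 2.62 ± 0.388 CPM (adjusted p = 0.142). Gys1 shares transcript sequence with the overlapping gene Ruvbl2 (290 bases at 100% identity). The largest count in a library was 536 for Ruvbl2 and 189 for Gys1.

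No gene of the glycolysis list passed with edgeR (0 of 27), DESeq2 or limma-voom, where 2.68%, 6.68% and 2.78% of all the genes they tested did. Before adjustment 8 had p under 0.05 in edgeR (2 higher and 6 lower, where 9.6% and 8.87% of all tested genes were), and the median log2 fold change was -0.17. In 22 of the 27 the log2 fold change was below 0, where 51.4% of all tested genes were. Bpgm, which makes 2,3-bisphosphoglycerate, averaged 10.8 ± 0.707 CPM with antibiotics and 13.2 ± 1.27 CPM in controls (adjusted p = 0.117). Aldoc, a minor liver aldolase, averaged 13.2 ± 3.41 and 9.63 ± 0.793 CPM (adjusted p = 0.122). Pkm, the pyruvate kinase of muscle and of many cells other than hepatocytes, averaged 13.4 ± 1.78 and 18.5 ± 4.14 CPM (adjusted p = 0.141) and was highest, at 25.1 CPM, in control library 2, where the Kupffer cell and macrophage markers summed to 386 CPM. Pkm also has a close copy in the pseudogene Gm6560 and Sord in Gm6652, and Pklr, Glyctk and Mlxip share exon sequence with overlapping genes, so reads of these could be split in counting. The largest count in a library was 2 for Gm6560 and 30 for Gm6652. For the genes that overlap Pklr, Glyctk and Mlxip it was 7, 4 and 0. Pklr, the liver pyruvate kinase, had a log2 fold change of -0.20 ± 0.23 (adjusted p = 0.701), which was -0.04 without control library 2 and -0.39 without antibiotics library 2. Gckr was at 0.01 ± 0.12 (adjusted p = 0.988), a sign that changed with no filter on low counts (-0.01).

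In the list for transport and cleavage of glucose 6-phosphate edgeR called 0 of 7 tested genes, limma-voom 0 and DESeq2 1. Of all the genes they tested these tools called 2.68%, 2.78% and 6.68%. Before adjustment 2 had p under 0.05 in edgeR (18.5% of all tested genes), and the median log2 fold change was 0.11. Slc37a3, a relative of Slc37a4, averaged 23.3 ± 1.71 CPM with antibiotics and 28.7 ± 2.48 CPM in controls, without overlap (edgeR adjusted p = 0.0779, DESeq2 adjusted p = 0.0264). G6pc3, the widely expressed phosphatase subunit, and Fbp1, the fructose 1,6-bisphosphatase of gluconeogenesis, were at 0.22 ± 0.11 (adjusted p = 0.324) and 0.11 ± 0.11 (adjusted p = 0.639) on the log2 fold change scale.

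In the pentose phosphate list edgeR, DESeq2 and limma-voom each called 0 of 8, where they called 2.68%, 6.68% and 2.78% of all the genes they tested. Before adjustment 3 had p under 0.05 in edgeR, all lower with antibiotics (8.87% of all tested genes), and the median log2 fold change was -0.24. G6pdx, which commits glucose 6-phosphate to that pathway, measured 6.33, 25.1, 15.7 and 11.8 CPM in antibiotics libraries 1, 2, 3 and 5, against 48.5, 36.4, 16.3, 34.0 and 34.8 CPM in control libraries 1 to 5. Control library 3 lay among the antibiotics libraries and the other controls lay above them. The log2 fold change was -1.21 ± 0.36 (adjusted p = 0.0932, and 0.0441 without control library 3). Pgd, the next dehydrogenase, had -0.55 ± 0.20 (adjusted p = 0.170) and Tkt -0.31 ± 0.13 (adjusted p = 0.245).

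Of the carbohydrate response factor ChREBP, its partners and its known targets, edgeR called 0 of 14, limma-voom 0 and DESeq2 1. Of all the genes they tested these tools called 2.68%, 2.78% and 6.68%. Before adjustment 2 had p under 0.05 in edgeR, both lower with antibiotics (8.87% of all tested genes), and the median log2 fold change was -0.19. Mlxipl, which encodes ChREBP, had a log2 fold change of -0.10 ± 0.14 (adjusted p = 0.766), and its relative Mlxip had an adjusted p of 0.422. Fgf21, a hormone gene induced by sugar, had a log2 fold change of -0.85 ± 0.27 (adjusted p = 0.115), from means of 2.2 CPM with antibiotics and 4.0 CPM in controls. The adjusted p was 0.0327 with DESeq2 and 0.229 with limma-voom. It passed in 0 of the 9 fits with 1 library omitted (adjusted p from 0.0845 to 0.249). Acaca, the acetyl-CoA carboxylase of fat synthesis, averaged 284 ± 110 CPM with antibiotics and 471 ± 176 CPM in controls (adjusted p = 0.206), and has a close copy in the pseudogene Gm5182.

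**Figure D5:**
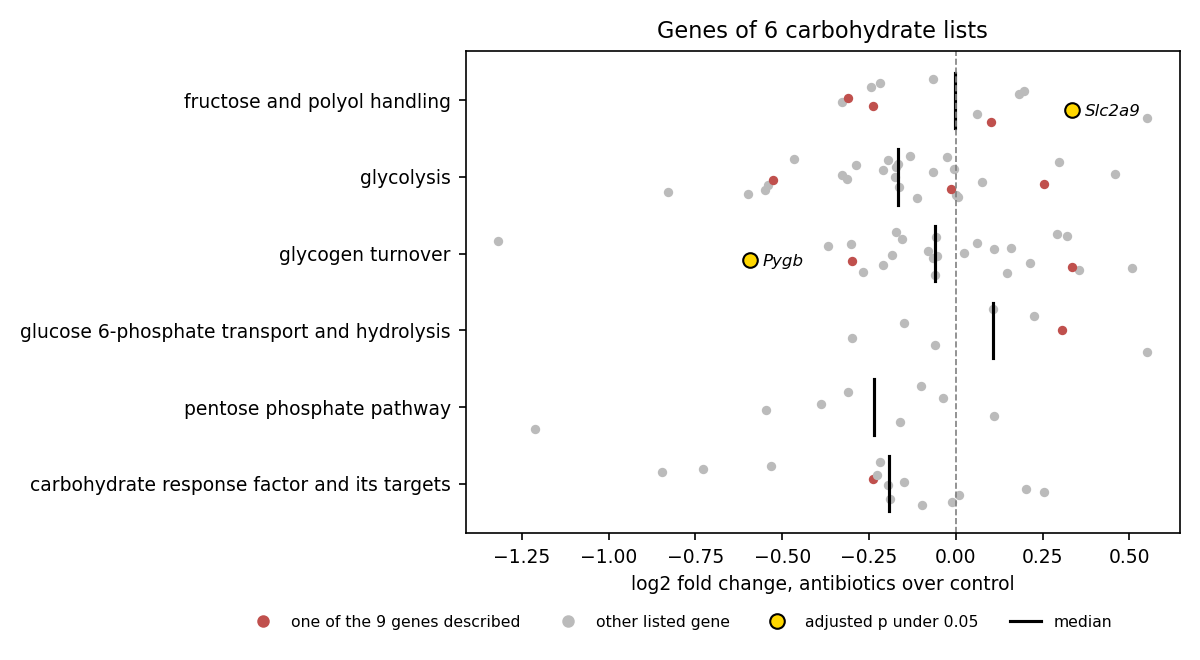
Log2 fold change (antibiotics over control) of each tested gene in 6 carbohydrate lists, with the list median as a vertical bar; red points are the 9 genes described and gold points the genes that passed. Slc2a9 (0.34) and Pygb (-0.59) are the 2 that passed, and none of the red points did.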

How the data were processed

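Estimated counts for each gene were deposited by the authors; the submitters' processing notes name Salmon and GRCm38, without a version, settings or annotation. All values were whole numbers and were used as they stood. Per the labels' protocols, libraries were made from poly(A) RNA with a stranded kit. All 54393 identifiers occur in GENCODE M21, which gave symbols, positions and exon lengths; Aldoa, carried by 2 identifiers, was read from that with counts.

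Genes were kept by filterByExpr (minimum count 10, minimum total 15) and fitted in edgeR 4.0.16 (R 4.3.3) with TMM factors and the quasi-likelihood F test on group alone, and p-values were adjusted over 14873 genes by Benjamini-Hochberg. SE is the size of the log2 fold change over the square root of F, and intervals use the test's degrees of freedom. Alternatives used DESeq2 1.42.0, limma-voom 3.58.1, RLE or upper-quartile factors, library sizes without the 10 most abundant genes, other filters, thinning to 15422891 counts, a block on replicate numbers and omission of each library. Log2 CPM used a prior count of 2. The fit was tested on simulated data. Close copies came from BLAST+ 2.17.0 (at least 95% identity over 200 nt). No pair of libraries matched within sampling noise (lowest chi-square per degree of freedom 18.8).

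The 9 genes and the lists were chosen with earlier results of these data known. Besides them the text names, per list, genes that passed and the 3 next smallest p, a fixed set (Gckr, Pklr, G6pc, Fbp1, Mlxipl, Slc2a5) and the 2 genes most like each of the 9; some items that this rule picks are not reported here. Intervals cover the spread between libraries only.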

Additional observations from a re-analysis of the deposited data

Results flagged for a closer look

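Among the 4 antibiotics libraries, library 2 stood apart for Tkfc at 682 CPM, where the other 3 measured 400 to 444 CPM. Among the 5 controls, library 3 stood apart for Pfkl at 25.9 CPM, where the other 4 measured 32.3 to 34.4 CPM. In each case the gap to the nearest library was a larger part of the group's range (0.843 and 0.756) than Dixon's 95% critical value. Of such comparisons about 1 in 20 stands out by chance.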

How the results depend on the processing

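For 7 of the 9 genes the direction and the side of the threshold held in all 18 alternatives. Gys2 passed without control replicate 3 only, and its log2 fold change ran from 0.28 to 0.44 when each library was left out. The sign of Pfkl changed with upper-quartile factors (0.002), thinning (0.029) and the replicate block (2e-04), and it ran from -0.0755 to 0.0312 when each library was left out. That of Gckr changed with DESeq2 (-0.0039), no filter on low counts (-0.0128) and thinning (-0.0024), and ran from -0.0779 to 0.0729 when each library was left out. The number of the 9 genes that passed was 0 in every other alternative and 0 to 1 when each library was left out.

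Over all genes 398 passed, against 976 with DESeq2, 179 with the replicate block, 937 at an adjusted p under 0.1, and 36 to 455 when each library was left out. Of the listed carbohydrate genes 2 passed, against 5 with DESeq2, 2 with no filter on low counts (Pygb and Ppp1r3g, without Slc2a9), 1 after thinning (Pygb), 1 with the replicate block (Gpi1), 6 at an adjusted p under 0.1, and 0 to 3 when each library was left out. Under the block Slc2a9 and Pygb had adjusted p of 0.0849 and 0.0815. Same-numbered libraries did not deviate together (correlations over genes from -0.06 to 0.10, and not every library correlated best with its own number), so the replicate number is not taken as a pairing. The cause of these differences was not tested. With 4 and 5 libraries, a log2 fold change smaller than its distance to an end of its interval could not be told from 0.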
